A study of Homo sapiens with 6 samples.

Results

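The nuclear genes for the subunits of oxidative phosphorylation were examined in HCC1806/HM3 breast cancer cells with and without knockdown of MSLN. Members were taken by symbol from the deposited gene table: NDUFA, NDUFB, NDUFC, NDUFS or NDUFV followed by a digit for complex I, SDHA to SDHD for complex II, UQCR for complex III, COX4 to COX8 for complex IV and ATP5 for ATP synthase (complex V), without symbols that hold a hyphen. This gave 85 of the 17860 listed genes, of which 36 belonged to complex I, 4 to complex II, 9 to complex III, 17 to complex IV and 19 to complex V. NDUFA4 and its relative NDUFA4L2 were counted with complex IV, where the NDUFA4 protein is found. Differential expression was tested for 82 members. COX8C carried missing marks in the shMSLN samples and had 0 counts in the shNC samples, and UQCRHL and ATP5MGL did not pass the filter on low counts.

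HCC1806 is a human breast squamous carcinoma line, and HCC1806/HM3 is its liver-seeking derivative, obtained by repeatedly isolating liver metastases from mice. The 3 shNC samples carried a lentiviral control shRNA and the 3 shMSLN samples a lentiviral shRNA against MSLN, which encodes the cell-surface protein mesothelin. Both groups were selected with G418, so viral infection and drug selection were common to them, and whether the knockdown line is a pool or a clone is not given in the sources used here. The study's methods also describe a firefly luciferase reporter with puromycin selection in HCC1806-derived cells. All 6 samples were cultured cells of this one line, and mRNA was captured with oligo(dT) before sequencing. The labels do not say whether the 3 samples of a group came from separate cultures, and the p-values then measure the spread between these samples only, which may be technical.

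Oxidative phosphorylation passes electrons from NADH (complex I) and succinate (complex II) through ubiquinone, complex III and cytochrome c to oxygen at complex IV, and the proton gradient built on the way drives ATP synthesis by complex V. All complexes but complex II combine subunits made from mitochondrial DNA with a larger set made from nuclear genes, and complex II is wholly nuclear. Nuclear subunit genes are known targets of the transcription factors NRF1, GABP (an ETS factor) and the estrogen-related receptors, with the coactivators of the PGC-1 family. The 13 subunits encoded in mitochondrial DNA were not analysed here.

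The deposited estimated counts summed to between 17507837 and 18512135 per sample. MSLN, the targeted gene, was at 231, 226 and 227 CPM in the shNC samples and 37.1, 36.2 and 35.3 CPM in the shMSLN samples, with no overlap between groups (log2 fold change -2.65, SE 0.042, adjusted p = 3.97e-15). All 8 markers of basal or squamous breast carcinoma were above 1 CPM in the cells, although KRT14, a defining basal keratin, stayed between 3.39 and 4.26 CPM, and their summed level was 3884 to 4246 CPM in shNC and 3528 to 3573 CPM in shMSLN. Within this list the means of KRT5 (2269 CPM in shNC and 1748 in shMSLN), KRT6A (145 and 70.9), TP63 (395.5 and 338.7) and EPCAM (246 and 241) were lower in shMSLN. Those of KRT17 (197 and 220), EGFR (534 and 603), CDH1 (294 and 326) and KRT14 (3.52 and 3.97) were higher. ESR1, the estrogen receptor, expected to be low in a triple-negative line, was between 11.7 and 12.5 CPM in shNC and had a higher mean of 16.4 CPM in shMSLN (up to 16.9 CPM), without overlap. Of the markers of other cells, 3 of 5 for fibroblasts, 2 of 3 for endothelium and 2 of 4 for leukocytes were above 1 CPM, with summed levels of 34.4 to 36.9, 7.15 to 8.57 and 4.45 to 5.15 CPM in shNC and 35.4 to 38.0, 8.44 to 9.54 and 5.02 to 5.70 CPM in shMSLN. CD3E stayed at or below 0.0565 CPM and ALB at or below 0.0561 CPM, and 0 of the 2 hepatocyte markers with values exceeded 1 CPM. The part of these markers in the results was not tested. Of the genes with over 100 reads, 47.7% had a whole-number estimated count (within 1e-06) in shMSLN replicates 2 and 3, as did 3.36% to 7.02% in the other 4 samples. These libraries were also the closest pair of all, with a chi-square of 1.27 per gene, where counting error alone gives about 1, against 2.30 to 6.14 for the other pairs within a group. The calls of members and of the pathway genes named are therefore also given for a fit without both.

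MSLN knockdown was accompanied by small differences in the subunit genes, with few members past the test. Of the 82 tested members, 12 were lower and 3 higher in shMSLN at an adjusted p below 0.05 in edgeR's quasi-likelihood test. This made 18.3% of the members, against 34.6% of all 14552 tested genes. By direction, 14.6% of members were lower against 18.0% of all genes, and 3.66% were higher against 16.6%. The 12 falls lay between -7.54% (UQCRC2, a core protein of complex III) and -17.4% (SDHB, the iron-sulfur subunit of complex II). COX4I2, an alternative isoform of a complex IV subunit, had the highest fitted log2 fold change, 0.53, and SDHB the lowest, -0.27. The median log2 fold change of the members was -0.0074, and that of all tested genes was 0.0019. The SD of the log2 fold changes was 0.13 over the members and 0.34 over all genes, and 2 members (2.44%) differed by more than 0.3 on the log2 scale, against 23.8% of all genes. The members were at higher levels, with a median of 58.1 CPM against 27.8 CPM, and had a median SE of 0.059 against 0.067. Their spread between the shNC samples was larger than that of all tested genes, with a median SD of 0.103 against 0.0858 on the log2 scale. Between the shMSLN samples it was smaller, at 0.050 against 0.0647. Groups did not overlap for 20 members (24.4%), against 46.2% of all tested genes. As these are levels in bulk samples, fewer cells of a kind and less RNA per cell cannot be told apart.

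Not all calls rested equally on single samples. With shMSLN replicates 2 and 3 both left out, 5 of the 15 calls held, those of ATP5F1B, ATP5F1C, NDUFV2, NDUFA11 and COX4I2, and the same 5 held in all 18 alternatives tried. In that smaller fit the share of all tested genes called also dropped, from 34.6% to 12.1%, and the share of members from 18.3% to 6.10%. All 15 kept their direction in every alternative. The plot of each sample against the shNC mean shows the genes in order of fold change within each complex, and in most rows shNC replicate 1 is red and shNC replicate 2 blue.

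**Figure D1:**
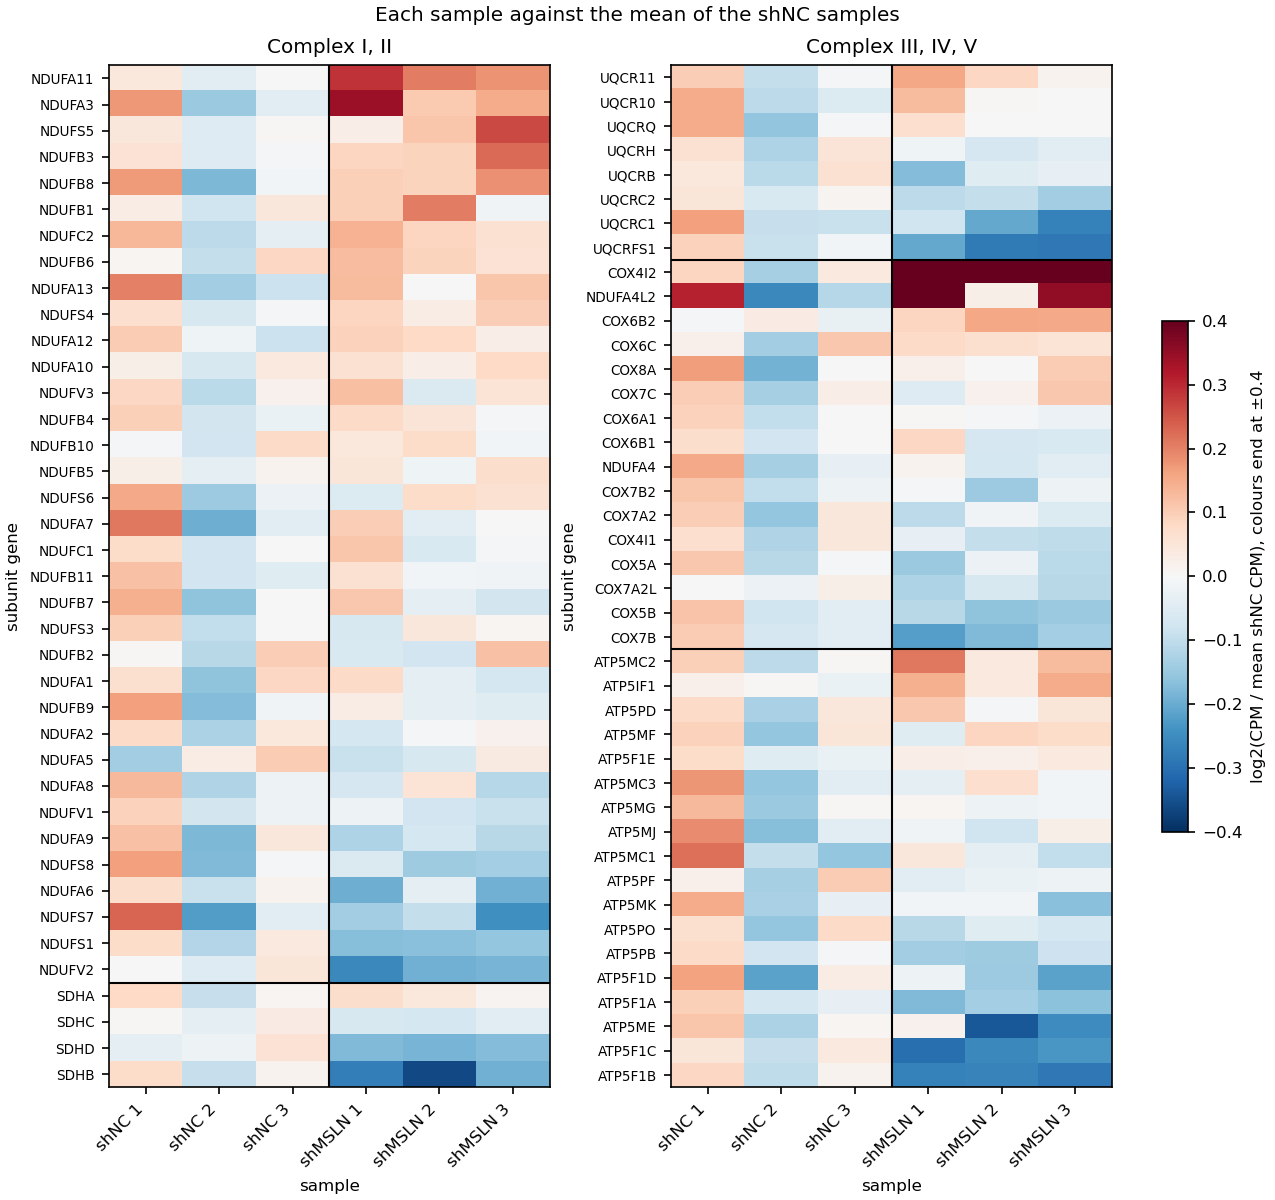
Level of 81 of the 82 tested subunit genes (rows, by complex and in order of fold change) in each of the 6 samples (columns), as log2 of CPM over the mean shNC CPM, with red above and blue below that mean and colours ending at ±0.4. The rows of ATP5F1B, ATP5F1C, SDHB and UQCRFS1 are blue in all 3 shMSLN samples and COX4I2 is red in all 3, while shNC replicate 1 is the highest shNC sample in most rows and shNC replicate 2 the lowest.

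The sequence upstream of the start was available for 70 of the 85 members (RefSeq, GRCh38.p14, first listed start of each gene, 250 bases before it). Letters of 4 motifs were searched on both strands: GCGCANGCG for NRF1, CCGGAAG for the ETS core bound by GABP, AAGATGGCG for YY1 and, added after the level of ESRRA had been seen, AAGGTCA for the estrogen-related receptors. NRF1 letters were found in 20 of 70 members (28.6%), in 7.02% of the 27305 genes with such a sequence and in 12.1% of the 11786 of these that were tested here. ETS letters were found in 17 members (24.3%), against 8.82% and 14.9%. YY1 letters were in 1 member (1.43%, against 0.641% and 0.942%) and the AAGGTCA letters in 5 (7.14%, against 3.46% and 2.38%). Among the 11 members that fell and had a sequence, 4 held NRF1 letters, 3 ETS letters and 1 AAGGTCA. A match of letters is a description and not a binding site. The upstream sequences are shown, so that they can be compared, for the 7 members with one whose call held when each sample was left out in turn, 6 of them lower and 1 (NDUFA11) higher in shMSLN, with matches in capitals. An NRF1 match that reads on both strands gives a run of one base more. UQCRFS1 lies at chr19:29213152-29213401 on the reverse strand, ATP5F1C at chr10:7787927-7788176 on the forward strand and SDHD at chr11:112086623-112086872 on the forward strand. SDHB lies at chr1:17054033-17054282 on the reverse strand, NDUFV2 at chr18:9102449-9102698 on the forward strand, NDUFA11 at chr19:5903791-5904040 on the reverse strand and ATP5F1A at chr18:46104228-46104477 on the reverse strand. UQCRFS1, ATP5F1C and NDUFA11 hold NRF1 letters, SDHD holds both NRF1 and ETS letters, SDHB holds AAGGTCA and then ETS letters, and NDUFV2 and ATP5F1A hold none of the 4.
UQCRFS1: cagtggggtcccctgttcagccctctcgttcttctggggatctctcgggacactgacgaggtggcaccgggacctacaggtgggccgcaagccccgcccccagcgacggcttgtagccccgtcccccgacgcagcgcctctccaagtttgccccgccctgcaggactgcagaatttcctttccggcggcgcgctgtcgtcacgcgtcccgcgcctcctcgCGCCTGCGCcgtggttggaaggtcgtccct
ATP5F1C: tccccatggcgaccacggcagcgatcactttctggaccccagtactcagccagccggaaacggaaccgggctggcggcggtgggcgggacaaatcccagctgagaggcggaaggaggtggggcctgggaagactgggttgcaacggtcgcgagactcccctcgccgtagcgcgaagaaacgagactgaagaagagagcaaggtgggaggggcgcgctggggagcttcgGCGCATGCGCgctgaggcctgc
SDHD: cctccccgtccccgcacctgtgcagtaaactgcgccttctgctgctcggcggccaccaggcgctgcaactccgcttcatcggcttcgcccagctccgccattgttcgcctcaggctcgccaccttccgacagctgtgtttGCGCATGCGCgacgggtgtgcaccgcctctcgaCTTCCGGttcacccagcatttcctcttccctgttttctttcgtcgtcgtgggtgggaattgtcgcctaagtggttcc
SDHB: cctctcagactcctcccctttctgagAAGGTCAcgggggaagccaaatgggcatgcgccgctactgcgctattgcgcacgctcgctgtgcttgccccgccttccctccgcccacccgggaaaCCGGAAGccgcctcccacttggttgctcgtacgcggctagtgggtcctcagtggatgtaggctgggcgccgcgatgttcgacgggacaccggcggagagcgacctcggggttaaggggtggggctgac
NDUFV2: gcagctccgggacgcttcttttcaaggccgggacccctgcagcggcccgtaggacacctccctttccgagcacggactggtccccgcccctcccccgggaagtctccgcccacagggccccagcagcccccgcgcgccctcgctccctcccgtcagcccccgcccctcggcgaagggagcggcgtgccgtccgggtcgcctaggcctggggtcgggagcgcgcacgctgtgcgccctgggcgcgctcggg
ATP5F1A: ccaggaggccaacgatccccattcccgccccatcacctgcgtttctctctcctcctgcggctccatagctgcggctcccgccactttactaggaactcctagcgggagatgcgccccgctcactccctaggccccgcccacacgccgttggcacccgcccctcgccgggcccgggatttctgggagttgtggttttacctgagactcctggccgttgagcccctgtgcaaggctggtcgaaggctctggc
NDUFA11: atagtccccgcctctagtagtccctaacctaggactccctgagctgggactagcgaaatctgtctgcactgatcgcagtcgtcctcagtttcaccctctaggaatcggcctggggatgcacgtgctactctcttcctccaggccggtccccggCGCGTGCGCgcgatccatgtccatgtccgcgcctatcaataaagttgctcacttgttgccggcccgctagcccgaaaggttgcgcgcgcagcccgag

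In complex I, the NADH dehydrogenase, 2 of 36 tested members were higher and 2 lower (median log2 fold change 0.02). Calls made up 11.1% of these members, against 34.6% of all tested genes. Both falls were of core subunits, which carry the redox centres, and of the 29 accessory subunits 1 was higher and 0 lower. NDUFV2 (NCBI Gene 4729), an iron-sulfur subunit of the NADH-oxidising tip, was at 85.0, 81.9 and 87.7 CPM in the shNC samples and 71.0, 74.2 and 74.6 CPM in the shMSLN samples. All 3 shMSLN samples lay below all 3 shNC samples (log2 fold change -0.21, SE 0.045, adjusted p = 0.00219). NDUFS1 (NCBI Gene 4719), the largest core subunit, with several iron-sulfur clusters, was at 127, 111 and 124 CPM in the shNC samples and 107, 107 and 108 CPM in the shMSLN samples. These groups did not overlap either (log2 fold change -0.16, SE 0.048, adjusted p = 0.016), but the call was lost without shNC replicate 3 (adjusted p = 0.0763) or shMSLN replicate 2 (0.0645).

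The core subunits NDUFV1, NDUFS3, NDUFS7 and NDUFS8 were not called. NDUFV1, which binds NADH and the flavin, had a log2 fold change of -0.06 ± 0.044 (SE), and NDUFS3, another peripheral-arm subunit, one of -0.00328 ± 0.058. NDUFS7 and NDUFS8, which carry the clusters nearest to ubiquinone, had log2 fold changes of -0.16 ± 0.094 and -0.11 ± 0.070. Their shNC samples were spread widely, from 22.2 to 30.4 CPM for NDUFS7 and from 48.3 to 61.2 CPM for NDUFS8, and the shMSLN samples lay within or near these ranges. Among the accessory subunits, NDUFA11 (NCBI Gene 126328), a membrane-arm subunit, was at 38.9, 36.7 and 37.7 CPM in the shNC samples and 46.1, 43.6 and 42.7 CPM in the shMSLN samples (log2 fold change 0.23, SE 0.053, adjusted p = 0.00441). It stayed past the threshold in all 18 alternatives tried. NDUFA3, another accessory subunit, had the next highest log2 fold change of the accessory subunits, 0.20 ± 0.093, and overlapping groups (adjusted p = 0.105). The accessory subunits ran from NDUFA6, at -0.14 ± 0.071, to NDUFA11, and 21 of the 29 were above 0. NDUFC2 was at 0.10 ± 0.053, but it overlaps the read-through gene NDUFC2-KCTD14, so that reads of the pair may be shared.

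**Figure D2:**
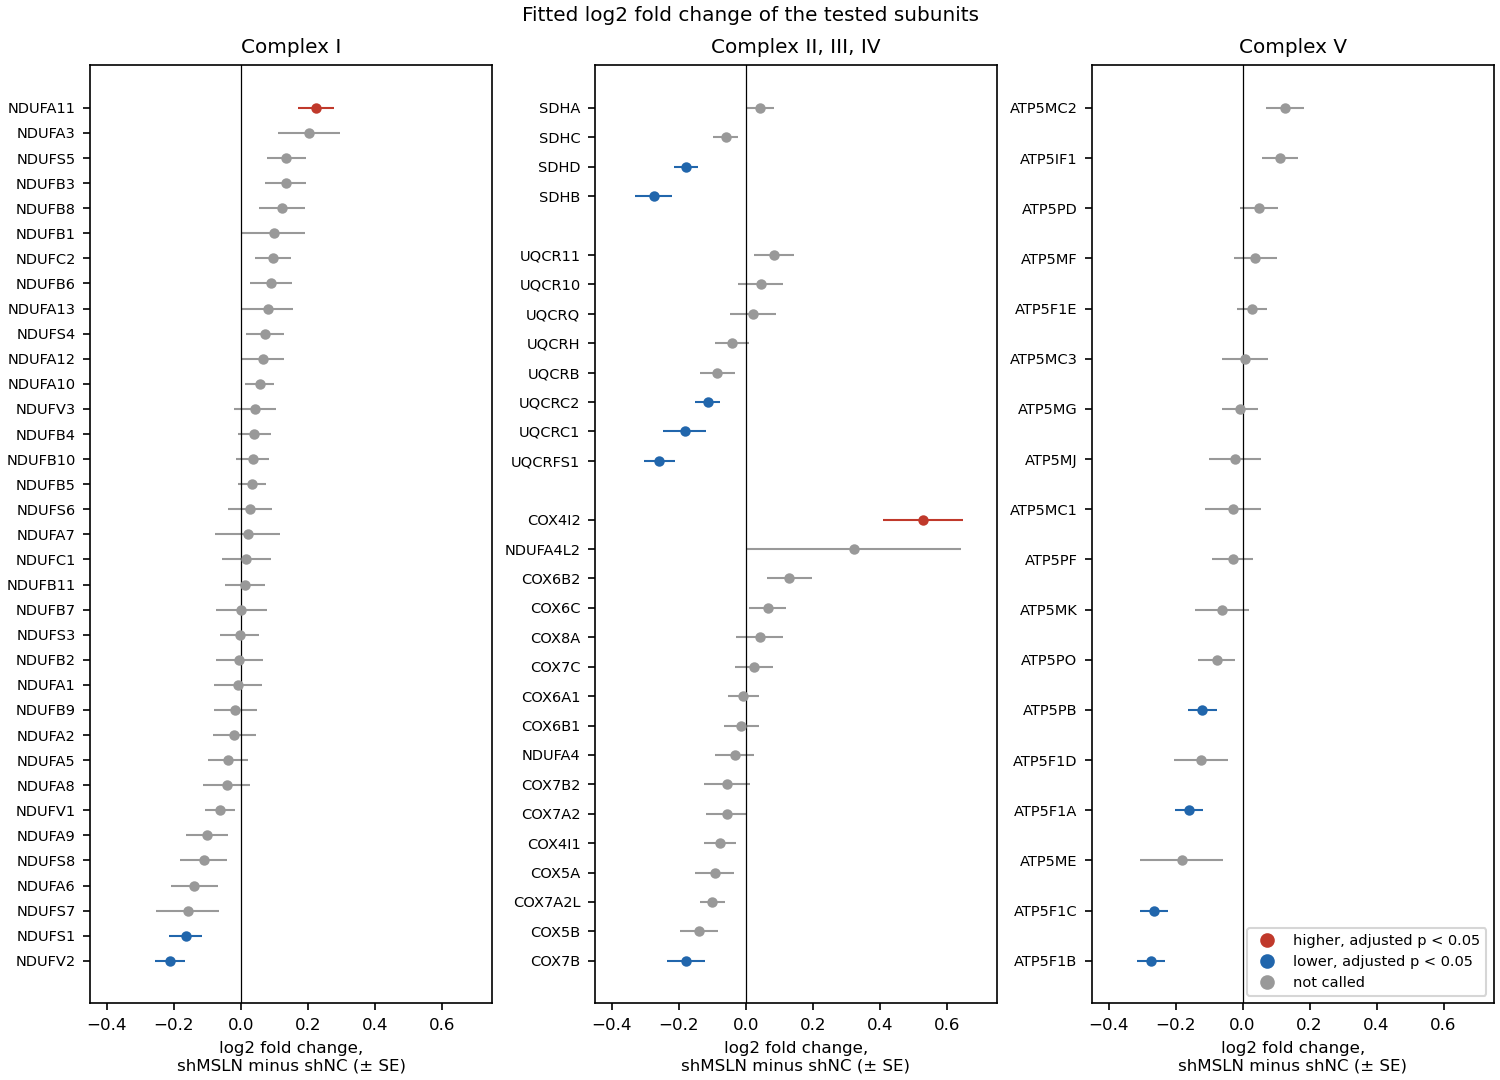
Fitted log2 fold change (horizontal axis, shMSLN minus shNC, with SE bars) of 81 of the 82 tested subunit genes in 3 panels, with complexes II, III and IV separated by gaps in the middle panel. Members past an adjusted p of 0.05 are red where higher (NDUFA11 and COX4I2) and blue where lower, and the blue points include the Rieske and both core proteins in complex III and 3 F1 subunits with ATP5PB in complex V.

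In complex II, succinate dehydrogenase, 2 of 4 members were lower and 0 higher (median log2 fold change -0.12). Calls made up 50.0% of these few members, against 34.6% of all tested genes. All were falls, and 18.0% of all tested genes were lower. SDHB (NCBI Gene 6390), which carries the iron-sulfur clusters between the flavin and ubiquinone, was at 84.0, 74.8 and 80.5 CPM in the shNC samples and 65.9, 62.1 and 69.8 CPM in the shMSLN samples. The highest shMSLN sample was below the lowest shNC sample (log2 fold change -0.27, SE 0.055, adjusted p = 0.00139). SDHD (NCBI Gene 6392), a membrane anchor at the ubiquinone site, was at 404, 408 and 431 CPM in the shNC samples and 367, 364 and 367 CPM in the shMSLN samples (log2 fold change -0.18, SE 0.036, adjusted p = 0.00144). It was the most abundant member of the complex per transcript length, at 697 ± 31.1 TPM (SD, n = 3) in shNC. SDHC, the other anchor, was at 196, 190 and 199 CPM in the shNC samples and 187, 186 and 189 CPM in the shMSLN samples, and although its groups did not overlap it was not called (log2 fold change -0.06, SE 0.037, adjusted p = 0.224). SDHA, the flavoprotein, was at 597, 531 and 569 CPM in the shNC samples and 594, 583 and 570 CPM in the shMSLN samples (log2 fold change 0.04, SE 0.041, adjusted p = 0.471). Its shMSLN samples lay inside the shNC range, and as SDHA has near-identical pseudogene copies its counts are uncertain. The difference between SDHB and SDHA was not itself tested. Both calls of the complex were lost when shMSLN replicates 2 and 3 were both left out (adjusted p = 0.0516 for SDHB and 0.116 for SDHD), a fit in which the lone shMSLN sample is assumed to vary like the shNC samples.

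In complex III, the cytochrome bc1 complex, 3 of 8 tested members were lower and 0 higher (median log2 fold change -0.063). Calls made up 37.5% of these members, near the 34.6% of all tested genes. All were falls, and 18.0% of all tested genes were lower. The 3 were the Rieske iron-sulfur protein and both core proteins, and 0 of the 5 small subunits tested were called. UQCRFS1 (NCBI Gene 7386), the Rieske protein, was at 201, 177 and 187 CPM in the shNC samples and 163, 155 and 154 CPM in the shMSLN samples, with every shMSLN sample below every shNC sample (log2 fold change -0.26, SE 0.047, adjusted p = 0.000677). UQCRC2 (NCBI Gene 7385) was at 375, 348 and 366 CPM in the shNC samples and 338, 339 and 330 CPM in the shMSLN samples (log2 fold change -0.11, SE 0.037, adjusted p = 0.0299). UQCRC1 (NCBI Gene 7384) was at 194, 163 and 163 CPM in the shNC samples and 164, 150 and 144 CPM in the shMSLN samples. Its groups overlapped, since shMSLN replicate 1 was above shNC replicates 2 and 3 (log2 fold change -0.18, SE 0.064, adjusted p = 0.0388). The call of UQCRC1 was lost without shNC replicate 1 (adjusted p = 0.107) and without shMSLN replicate 2 (0.126) or 3 (0.172). That of UQCRC2 was lost without shNC replicate 3 (0.0949) or any 1 of the shMSLN samples (0.0593 to 0.14). UQCRFS1 held in each of these fits but not with shMSLN replicates 2 and 3 both left out (0.117). The small subunits lay between UQCRB at -0.08 ± 0.053 and UQCR11 at 0.08 ± 0.059, with UQCR10 at 0.04, UQCRQ at 0.02 and the hinge protein UQCRH at -0.04 on the log2 scale. UQCRHL, a close copy of UQCRH, was at 0 to 0.336 CPM in all samples and was not tested. CYC1, the cytochrome c1 subunit, and CYCS, cytochrome c itself, have names outside the rule. CYC1 was at 185, 149 and 164 CPM in the shNC samples and 144, 132 and 135 CPM in the shMSLN samples (log2 fold change -0.28, SE 0.062, adjusted p = 0.00321). CYCS was at 139, 126 and 132 CPM in the shNC samples and 95.2, 96.0 and 97.9 CPM in the shMSLN samples (log2 fold change -0.46, SE 0.044, adjusted p = 1.81e-06). Without shMSLN replicates 2 and 3 the call of CYC1 was lost (adjusted p = 0.2) and that of CYCS held (0.00157).

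In complex IV, cytochrome c oxidase, 1 of 16 tested members was higher and 1 lower (median log2 fold change -0.023). Calls made up 12.5% of these members, against 34.6% of all tested genes. COX4I2 (NCBI Gene 84701), the isoform of subunit 4 known for its expression in lung and its induction by hypoxia, was at 5.80, 4.99 and 5.62 CPM in the shNC samples and 8.54, 7.91 and 7.23 CPM in the shMSLN samples. The groups were apart (log2 fold change 0.53, SE 0.12, adjusted p = 0.00346), a rise of 44.4% that rested on 90 to 106 counts per shNC sample and 128 to 159 per shMSLN sample. COX4I1, the common isoform, was at 211, 185 and 207 CPM in the shNC samples and 196, 188 and 187 CPM in the shMSLN samples, with overlapping groups (log2 fold change -0.08, SE 0.048, adjusted p = 0.24). Per transcript length, COX4I1 was at 32.6 ± 0.476 times the level of COX4I2 in shNC and at 21.3 ± 1.38 times in shMSLN (mean of the TPM ratios ± SD, n = 3), and COX4I1 remained the main isoform in both groups. COX7B (NCBI Gene 1349), a small structural subunit, was at 50.4, 44.8 and 45.6 CPM in the shNC samples and 40.3, 41.5 and 42.7 CPM in the shMSLN samples (log2 fold change -0.18, SE 0.056, adjusted p = 0.0232). This call was lost without shNC replicate 1 (adjusted p = 0.0649), shMSLN replicate 1 (0.0876) or shMSLN replicate 2 (0.0747).

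COX7A2L, which takes part in supercomplex assembly, and COX5B, which binds zinc, had groups apart below shNC without passing the test, with log2 fold changes of -0.10 ± 0.038 (SE, adjusted p = 0.056) and -0.14 ± 0.057 (adjusted p = 0.07). COX6B2, the isoform of COX6B1 known from testis, had groups apart above shNC, at 0.13 ± 0.066 (adjusted p = 0.145). COX6B1 was at -0.01 ± 0.053 and its TPM was 17.6 times that of COX6B2 in shNC. COX7B2, known as a testis isoform, was in contrast listed at 2.66 times the TPM of COX7B in shNC and 2.87 times in shMSLN, and was at -0.06 ± 0.069. NDUFA4 was at -0.03 ± 0.057, and NDUFA4L2, its hypoxia-induced relative, was at 0.554 to 0.967 CPM over the 6 samples, too low to resolve a difference (log2 fold change 0.32, SE 0.32, adjusted p = 0.467). COX6A1, COX7A2, COX8A and COX6C had log2 fold changes of -0.01, -0.06, 0.04 and 0.07, none of them called.

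In complex V, ATP synthase, 4 of 18 tested members were lower and 0 higher (median log2 fold change -0.029). Calls made up 22.2% of these members, against 34.6% of all tested genes. All were falls, and 18.0% of all tested genes were lower. The parts named next were set after values had been seen. By part of the enzyme, 3 of the 5 subunits of the F1 head and central stalk were lower, 1 of 4 in the peripheral stalk, and 0 of 3 genes of the c-ring, 0 of 5 other membrane subunits and 0 of 1 inhibitor. ATP5F1B (NCBI Gene 506), the catalytic beta subunit, was at 787, 692 and 749 CPM in the shNC samples and 616, 617 and 609 CPM in the shMSLN samples. The lowest shNC sample was above the highest shMSLN sample (log2 fold change -0.27, SE 0.042, adjusted p = 0.000157). ATP5F1C (NCBI Gene 509), the rotating gamma subunit, was at 379, 344 and 376 CPM in the shNC samples and 297, 307 and 312 CPM in the shMSLN samples (log2 fold change -0.26, SE 0.042, adjusted p = 0.000217). Both held in all 18 alternatives. ATP5F1A (NCBI Gene 498), the alpha subunit, was at 333, 298 and 305 CPM in the shNC samples and 276, 284 and 278 CPM in the shMSLN samples, again without overlap (log2 fold change -0.16, SE 0.043, adjusted p = 0.00934), a call lost with shMSLN replicates 2 and 3 both left out (adjusted p = 0.154). The delta subunit ATP5F1D and the epsilon subunit ATP5F1E were not called (-0.12 ± 0.080 and 0.03 ± 0.045).

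Subunit b of the peripheral stalk, ATP5PB, was at 210, 189 and 198 CPM in the shNC samples and 181, 180 and 188 CPM in the shMSLN samples (log2 fold change -0.12, SE 0.043, adjusted p = 0.0412). Its call was lost without shNC replicate 1 or 3 (adjusted p = 0.0907 and 0.0964) and without any 1 of the shMSLN samples (0.0638 to 0.157). The other stalk subunits ATP5PO, ATP5PF and ATP5PD had log2 fold changes of -0.08, -0.03 and 0.05. ATP5MC1, ATP5MC2 and ATP5MC3 encode the same c-ring peptide behind different targeting sequences, and they were at -0.03 ± 0.083, 0.13 ± 0.056 and 0.01 ± 0.069. ATP5IF1, the inhibitor that blocks ATP hydrolysis, was at 35.3, 34.9 and 34.2 CPM in the shNC samples and 38.4, 35.8 and 38.6 CPM in the shMSLN samples. Its shMSLN samples were all above its shNC samples, but the test was not passed (log2 fold change 0.11, SE 0.054, adjusted p = 0.13). ATP5MGL, a close relative of the membrane subunit gene ATP5MG, was at 0 to 0.43 CPM and was not tested.

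The 12 falls and the 67 members without a call differed in level and length. The median level in shNC was 194 CPM for the genes that fell and 52.6 CPM for those not called, and the median transcript length (from the deposited counts and FPKM) was 1.79 kb against 0.64 kb. A member without a call is not shown to be unaltered. Of the 82 members, 66 had a fitted difference within 10% either way.

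The shNC samples were less alike than the shMSLN samples in these genes, and this bore on the calls. Summed over the members with values, the level was 8823, 7827 and 8415 CPM in shNC (mean 8355 ± 501, SD) and 8019, 7926 and 7934 CPM in shMSLN (7960 ± 51.9), a difference of -4.73% that lay within the shNC range. On the TPM scale the sums differed by -0.393%. shNC replicate 1 was the highest shNC sample for 66 of 82 members (80.5%, against 36.3% of all tested genes) and shNC replicate 2 the lowest for 76 (92.7%, against 34.1%). The median log2 difference of shNC replicate 1 over replicate 2 was 0.19 for the members and -0.009 for all tested genes. It was 0.094 in the shortest and -0.08 in the longest of 4 classes of tested genes by transcript length, and the median length was 0.737 kb for the members and 3.02 kb for all genes. The part of transcript length in the members' spread was not tested. Without shNC replicate 1, 9 members were higher and 10 lower, and without shNC replicate 2, 2 were higher and 21 lower. These are 23.2% and 28.0% of the members, against 36.8% and 33.3% of all genes tested in the same fits. The calls added without shNC replicate 1 were NDUFA3, NDUFA13, NDUFB8, NDUFC2, NDUFS5 and ATP5MC2, all higher, and COX7A2L, lower (adjusted p = 0.00215 to 0.0419). Those added without shNC replicate 2 were NDUFA9, NDUFS7, NDUFS8, UQCRB, COX4I1, COX5B, COX7A2L, ATP5F1D and ATP5PO, all lower (adjusted p = 0.00634 to 0.0473). COX7A2L was the 1 gene added by both.

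By complex, the summed CPM differed by 0.386% for complex I, -4.26% for II, -7.86% for III, -2.28% for IV and -9.35% for V. Complex V summed to 2687, 2351 and 2542 CPM in shNC and to 2289, 2289 and 2294 CPM in shMSLN, with all shMSLN samples below all shNC samples on this scale. Complex II was apart from shNC replicates 1 and 3 but overlapped with replicate 2, with 1281, 1204 and 1279 CPM in shNC and 1213, 1195 and 1195 CPM in shMSLN. On the TPM scale complex V summed to 5101, 4611 and 4881 in shNC and to 4648, 4663 and 4698 in shMSLN, so that the groups overlapped and the difference was -4.00%. Complex II was in contrast apart in TPM, with 1535 to 1595 in shNC and 1499 to 1511 in shMSLN (-3.69%). The TPM sums of complexes I, III and IV differed by 4.10%, -3.66% and 0.769%. In CPM, complexes I and IV lay within the shNC range in all 3 shMSLN samples. Complex III overlapped in both units, with shMSLN replicate 1 at 993.3 CPM and 1465 TPM and shNC replicate 2 at 992.0 CPM and 1430 TPM. With 3 samples against 3, an exact permutation test cannot go below a two-sided p of 0.1, so no p is given for these sums.

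**Figure D3:**
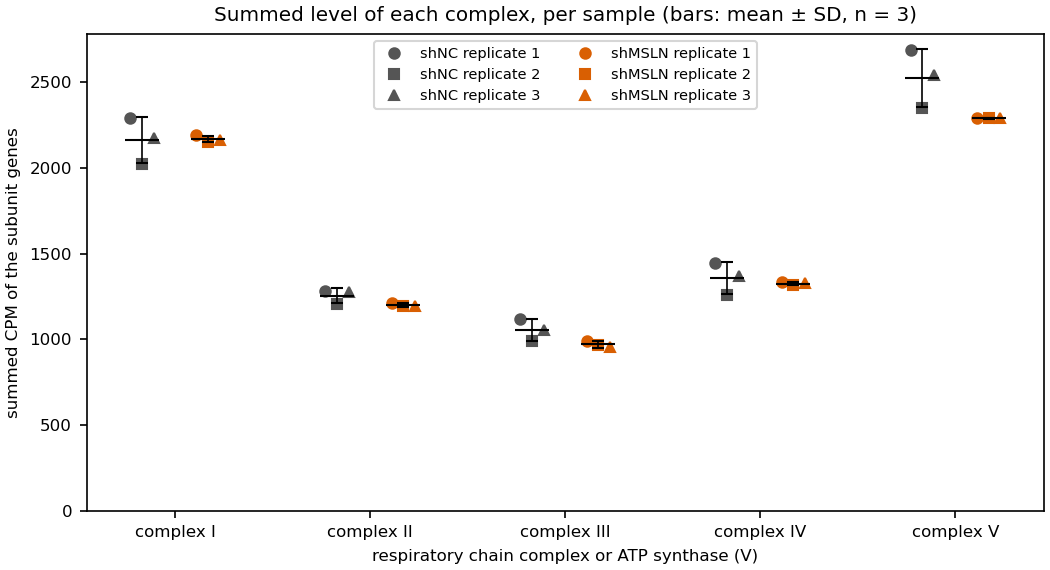
Summed CPM of the subunit genes of each complex (vertical axis, from 0) in each of the 3 shNC (grey) and 3 shMSLN (orange) samples, with symbols for the replicate number and bars for mean ± SD. The shNC samples spread by up to 2351 to 2687 CPM in complex V, and the 3 shMSLN samples there are at 2289 to 2294 CPM, below all of them on the CPM scale but not in TPM.

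Levels of different genes can be compared per transcript length, on the deposited TPM scale. In shNC the tested members ran from 1.28 TPM (NDUFA4L2) to 934 TPM (ATP5F1B), with a median of 150 TPM against 19.1 TPM for all tested genes. ATP5F1B (934 ± 41.3 TPM, SD, n = 3) and ATP5F1C (753 ± 25.4 TPM) were the leading genes of complex V. In the order of all members ATP5F1C was followed by COX6A1 (739 ± 34.6 TPM), from which it did not differ beyond the spread. In complex I the leading genes were NDUFB9 (455 ± 44.7 TPM) and NDUFV1 (362 ± 15.3 TPM), and in complex II SDHD and SDHA (449 ± 18.2 TPM). UQCRH (436 ± 21.2 TPM) and UQCRC2 (419 ± 7.50 TPM) led complex III without differing beyond their spread, and COX6A1 and COX4I1 (626 ± 32.5 TPM) led complex IV. Median levels were 122, 344, 118, 251 and 160 TPM for complexes I to V. Some low TPM values go with long transcripts in the authors' annotation: UQCRB was at 27.2 TPM with a length of 8.42 kb and NDUFS1 at 22.4 TPM with 11.6 kb, so the level of such a gene depends on the isoform that was counted.

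**Figure D4:**
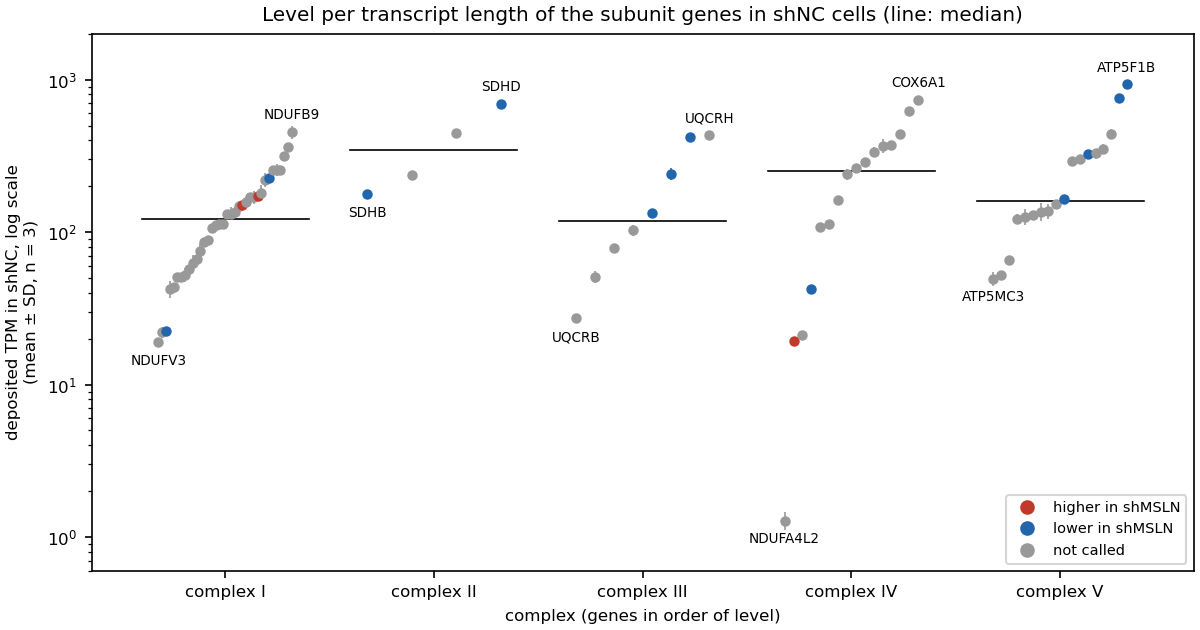
Deposited TPM (logarithmic vertical axis, mean ± SD of the 3 shNC samples) of the 82 tested subunit genes, in order of level within each complex, with a line at the complex median and the lowest and highest gene named. Genes lower in shMSLN (blue) include ATP5F1B, ATP5F1C and SDHD near the top, and COX4I2 (red, higher) stands near the bottom of complex IV at 19.2 TPM.

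Other genes of the pathway were taken from lists. Of 18 complex I assembly factors, 1 was higher and 2 lower (median log2 fold change -0.0029), and of 40 factors for complexes II to V, 2 were higher and 10 lower (-0.068). These are 16.7% and 30.0% called, both below the 34.6% of all tested genes. The 10 included COX17, a copper chaperone of complex IV (-0.40 ± 0.098), SCO1, which also delivers copper (-0.25 ± 0.054), and TMEM70, needed for ATP synthase assembly (-0.33 ± 0.079). The 2 that were higher were COX11 (log2 fold change 0.18) and FMC1 (0.44). Of 78 mitochondrial ribosomal proteins, 4 were higher and 17 lower (-0.064), or 26.9% called, with 21.8% lower against 18.0% of all tested genes. For 78.2% of these genes shNC replicate 2 was the lowest shNC sample, and for 67.9% replicate 1 the highest. Without shMSLN replicates 2 and 3, the medians were 0.00094 for the complex I factors, -0.057 for the other factors and -0.053 for the ribosomal proteins. Fewer of all tested genes were called in that fit. The call of SCO1 held there (log2 fold change -0.30), and those of COX17, TMEM70, COX11 and FMC1 did not (-0.30, -0.34, 0.10 and 0.33).

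Upstream of the chain, 11 of 18 genes of the citric acid cycle and the pyruvate dehydrogenase complex were lower and 1 higher (median -0.16). The falls made 61.1% of this list, against 18.0% of all tested genes. The pyruvate dehydrogenase complex, which feeds the cycle, gave 4 of the 18 (PDHA1, PDHB, PDHX and DLAT) and 3 of the falls, and the other 14 gave 8 falls and the 1 rise (median -0.16). IDH3A, a subunit of the NAD-dependent isocitrate dehydrogenase, was at 38.2, 36.9 and 38.0 CPM in the shNC samples and 26.3, 25.6 and 28.5 CPM in the shMSLN samples (log2 fold change -0.49, SE 0.058, adjusted p = 1.43e-05). IDH3B and IDH3G, of the same enzyme, were not called (-0.10 and 0.08). Citrate synthase, CS, had a log2 fold change of -0.22 ± 0.040, and IDH2, the NADP-dependent isocitrate dehydrogenase, was the 1 that was higher (0.23 ± 0.065). Of 9 genes for transport of ADP, phosphate and pyruvate, 5 were lower and 0 higher (-0.20), or 55.6% lower against the same 18.0%. The list holds VDAC1, VDAC2 and VDAC3, channels of the outer membrane, of which VDAC2 was lower, and of the 6 inner-membrane carriers 4 were lower (-0.21), among them the phosphate carrier SLC25A3 (-0.21 ± 0.033) and the ADP/ATP carrier SLC25A6 (-0.31 ± 0.041). Without shMSLN replicates 2 and 3, the median log2 fold change was -0.135 for the 18 genes and -0.21 for the 9. Fewer of all tested genes were called in that fit. IDH3A, CS and SLC25A6 stayed called in that fit (adjusted p = 0.00281, 0.0436 and 0.0256), while IDH2 and SLC25A3 did not (0.136 and 0.0524).

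Of 19 tested regulators of mitochondrial biogenesis, 8 were lower and 2 higher (median -0.14). By direction, 42.1% were lower against 18.0% of all tested genes, and 10.5% were higher against 16.6%. PPARGC1B, a coactivator of the PGC-1 family, was at 9.57, 8.31 and 8.57 CPM in the shNC samples and 4.51, 5.10 and 4.07 CPM in the shMSLN samples, and its groups did not overlap (log2 fold change -0.95, SE 0.13, adjusted p = 3.90e-05). PPARGC1A, of the same family, was at 0 to 0.336 CPM and was not tested. ESRRA, the estrogen-related receptor alpha, was at 29.6, 27.7 and 29.5 CPM in the shNC samples and 22.9, 21.5 and 21.2 CPM in the shMSLN samples (log2 fold change -0.40, SE 0.063, adjusted p = 0.000184). GABPA and GABPB2, subunits of GABP, had log2 fold changes of -0.28 ± 0.062 and -0.33 ± 0.055, while GABPB1 was at 0.04 ± 0.073 and not called. NRF1, whose letters were found upstream of 20 members, was at 0.02 ± 0.077 (adjusted p = 0.883). TFAM, the packaging factor of mitochondrial DNA, was lower (-0.14 ± 0.041), as was POLG, a subunit of the mitochondrial DNA polymerase (-0.32). POLG2, an accessory subunit of the same polymerase, and TFB2M, a mitochondrial transcription factor, were higher (0.26 ± 0.068 and 0.14 ± 0.053). Without shMSLN replicates 2 and 3, the median of the regulators was -0.11, and fewer of all tested genes were called. The calls of PPARGC1B, ESRRA, GABPA and GABPB2 held in that fit (log2 fold changes -0.96, -0.33, -0.33 and -0.32). Those of TFAM, POLG, POLG2 and TFB2M did not (-0.17, -0.27, 0.29 and 0.17). With all samples, the median of the subunit genes was nearer to that of all genes than the median of every list here except the complex I assembly factors. Without shNC replicate 2 the subunit median was -0.0651, and without shNC replicate 1 it was 0.0469. The medians of the other lists were not compared in these fits. Between groups, the median log2 difference was 0.020 in the shortest and -0.044 in the longest class of tested genes by transcript length. The median length was 0.737 kb for the subunit genes, and 1.2 kb (ribosomal proteins) to 2.9 kb (regulators) for these lists. The part of length in this order was not tested. The difference between lists was not tested.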

How the data were processed

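Total RNA of 3 shNC and 3 shMSLN samples of HCC1806/HM3 cells was enriched for mRNA and sequenced. The authors deposited estimated counts per gene (expected counts, not scaled to library size), together with FPKM and TPM values that the authors had scaled for transcript length and depth. The submitters' processing notes name GRCh38.p13, and the aligner and counter are not given in the sources used here. Of 17860 genes, 1287 had missing marks in shMSLN samples and were dropped.

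Estimated counts were rounded and tested with edgeR 4.0.16 (R 4.3.3; TMM scaling, filterByExpr, quasi-likelihood test, groups only). The p-values were adjusted by Benjamini-Hochberg across all 14552 tested genes, and a call needed an adjusted p below 0.05. The SE is the log2 fold change over the root of its F value. CPM are counts relative to the TMM-scaled library size. TPM served to compare levels between genes, and TPM sums and isoform ratios were also compared between groups. FPKM served only to derive transcript length. Libraries held 17507837 to 18512135 counts, which limits the precision of members near 1 CPM. edgeR, DESeq2 1.42.0 and limma-voom 3.58.1 were checked on simulated data.

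Alternatives were RLE and upper-quartile scaling, other filters, DESeq2, limma-voom, robust edgeR estimation, a replicate block, single samples left out, shMSLN replicates 2 and 3 left out together, missing marks as 0 counts and removal of a length trend. For the pathway lists, the fit without shMSLN replicates 2 and 3 and the split of 2 lists were added after seeing the data. The members, the gene lists, the markers and the rule for named genes were chosen with earlier results of these data known. The rule named, in each complex, the 3 members with the smallest adjusted p in each direction and the 2 with the most TPM, the catalytic and redox-centre subunits, isoform sets, members not tested and the extremes of fold change. ATP5PB, NDUFA3, UQCRB and other members outside it, the roles of subunits, the length classes and the AAGGTCA letters were chosen after values had been seen. Promoter letters come from RefSeq (GRCh38.p14). The values of 1 member are not reported here, though it is in the counts.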

Additional observations from a re-analysis of the deposited data

How the results depend on the processing

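Every call among the 15 members kept its direction under all 18 alternatives, but 35 of the values of the 12 lower members missed the threshold. Among the 67 members without a call, 93 of 1206 values changed sign, 0 of them past the threshold (by the test of each alternative). The cause of the shifts given next was not tested. With 1 sample left out, 2 to 9 members were higher and 7 to 21 lower, with a median log2 fold change of -0.0651 to 0.0469. These fits called 10.98% to 28.05% of the members, and 25.17% to 36.75% of all tested genes. By complex, the higher, lower and median values ran from 1 to 7, 1 to 5 and -0.021 to 0.073 in complex I, the lower count in complex II was 2 throughout with medians of -0.13 to -0.098, and complex III had 1 to 4 lower with medians of -0.12 to -0.036. Complex IV had 0 to 4 lower with medians of -0.074 to 0.032, and complex V 0 to 1 higher and 3 to 6 lower with medians of -0.0951 to 0.0397.

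With upper-quartile scaling, 5 members were higher (1 in complex V), 1 was lower in complex III and 0 in complex IV, and the median was 0.022 over all members and -0.0899, -0.0341, 0.00584 and 0.000136 in complexes II to V. DESeq2 called 1 higher in complex I and 0 lower in complex IV. Upper-quartile scaling called 15.85% of the members and 34.77% of all tested genes, and DESeq2 14.63% and 26.55%. With no filter on low counts the complex III median was -0.044. With shMSLN replicates 2 and 3 both left out, 3 members were lower, 1 in complex I, 0 in complexes II, III and IV and 2 in complex V, 1 was higher in complex I, and the medians were 0.00785 over all members, 0.063 in complex I, -0.046 in III and -0.000403 in IV. With the length trend removed, 1 member was lower in complex I and 4 in complex IV, and the medians were -0.036 over all members, -0.14 in complex II, -0.044 in IV and -0.058 in V. That fit called 20.73% of the members and 36.24% of all tested genes.

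The labels do not say whether the replicate numbers pair the samples. The correlations of same-numbered samples, as deviations from their group means, were small, at 0.165, 0.0764 and 0.0718. Every sample correlated best with its own number, and the other correlations ran from -0.105 to 0.0355. Whether the numbers stand for a shared batch was not tested. With the replicate block, 6 members were higher (4 in complex I, 1 in complex V) and 3 lower in complex IV. With the block and the length trend removed, 19 were lower (4 in complex I, 4 in complex IV), 1 was higher in complex V, and the medians were -0.035 over all members and -0.138, -0.0531, -0.0428 and -0.057 in complexes II to V. The block alone called 24.39% of the members and 39.78% of all tested genes, and the block with the length trend removed 28.05% and 40.64%.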

Other observations

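Reads of 2 read-through genes that the choice of members left out could be shared with members. NDUFC2-KCTD14 was at 57.8 to 66.8 CPM in shNC and 72.0 to 79.9 CPM in shMSLN and was higher in shMSLN (log2 fold change 0.27, adjusted p = 0.00225 in edgeR's quasi-likelihood test), while NDUFC2 was not called. ATP5MF-PTCD1 was at 6.84, 6.37 and 1.11 CPM in the shNC samples and 3.92, 3.48 and 5.02 CPM in the shMSLN samples, so shNC replicate 3 stood apart from the other 5. NDUFAB1, the acyl carrier protein of complex I, lies outside the name rule and was not called (log2 fold change -0.17, adjusted p = 0.115 in the same test).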
